A study of Homo sapiens with 6 samples.

Results

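Complexes II to V of the respiratory chain and ATP synthase were followed here through their nuclear genes in SW480, an established line of human colorectal adenocarcinoma cells, treated for 24 h with MPM-1 or the solvent DMSO alone. The genes were taken by a rule on their symbols. A row of the deposited table was taken where its symbol began with UQCR, with ATP5 or with COX and a digit, or was SDHA, SDHB, SDHC, SDHD or CYC1. This gave 53 of 12982 genes, of which 4 belong to complex II, 10 to complex III, 21 to complex IV and 18 to complex V. The symbol rule also takes in 9 assembly factors of complex IV and ATP5IF1, the inhibitor of ATP synthase, and leaves 43 genes for subunits. MPM-1 is a fluorescent probe directed to mitochondria and is called WT4 in the sample labels. There were 3 libraries for each treatment, all of unmodified (labelled WT) SW480 cells, and the dose of MPM-1 used for sequencing is not stated. Both groups come from a single line, and nothing in the labels says whether the libraries of a treatment came from separate cultures, so the spread between them may be technical.

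Complex II, succinate dehydrogenase, passes electrons from succinate to ubiquinone and is built from nuclear genes only. Complex III passes them on to cytochrome c, complex IV from cytochrome c to oxygen, and complex V uses the resulting proton gradient to make ATP. Complexes III, IV and V join nuclear-encoded subunits, imported from the cytosol, with a few subunits encoded in mitochondrial DNA (mtDNA), so that both genomes supply parts of one enzyme. Promoters of the nuclear genes often carry sites for NRF1, for ETS proteins such as GABP and for YY1.

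Total counts were 32095456 to 40269820 in the DMSO libraries and 31733667 to 35403841 in the MPM-1 libraries. The 53 genes took 0.995% to 1.07% of all counts with DMSO and 0.697% to 0.743% with MPM-1. Transcripts of mtDNA took 8.28% to 9.11% and 1.95% to 2.35%. Of the colorectal epithelial markers, 9 of 10 were in the table, CEACAM5 being the exception, and their summed FPKM (fragments scaled for transcript length and library size) was 4769 to 5493 with DMSO and 6710 to 7175 with MPM-1. Of these 9 markers 4 rose (KRT8, KRT18, KRT19 and CDH1, with log2 fold changes of 0.42, 0.89, 0.89 and 0.82), 4 fell (CDX2, KRT20, LGR5 and VIL1, with -2.20, -2.03, -1.75 and -0.88) and EPCAM did not pass the test (-0.0008, SE, the standard error, 0.077). Of the markers of other cell types, 1 of 6 for fibroblasts (COL1A1, summed FPKM at most 0.510), 2 of 5 for immune cells (CD68 and CD14) and 0 of 3 for endothelium were in the table. The summed FPKM of the 2 immune markers was 36.9 to 50.4 with DMSO and 70.8 to 74.7 with MPM-1, where CD68 rose (log2 fold change 1.08) and CD14 fell (-1.34). The part of these shifts in the results on complexes II to V was not tested.

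Across the 53 genes, 33 fell after MPM-1, 1 rose and 19 did not pass the test, at an adjusted p-value under 0.05 (edgeR's quasi-likelihood test, Benjamini-Hochberg adjustment over all 12982 genes). By the same rule 28.8% of all genes in the table fell and 27.7% rose. The median log2 fold change was -0.35 for the 53 genes and -0.03 for all genes. The falls were mostly of moderate size. A stricter rule asked for an adjusted p-value under 0.01 and a change of 1 or more, up or down, on the log2 scale. Only COX18 passed it, as lower, whereas 8.75% of all genes passed it as lower and 5.58% as higher. All 3 MPM-1 libraries lay below all 3 DMSO libraries in 36 of the 53 genes, against 33.3% of all genes. They lay above in 4, against 4024 of all 12982 genes, and among the DMSO libraries in 13, against 4641. Libraries of bulk RNA measure shares of a total, so that fewer transcripts per cell and a smaller share of cells holding them cannot be told apart. Scaling by library size alone moved the median of all genes to -0.18 and that of the 53 genes to -0.50, a distance between them close to that given above. Of the 53 genes, 26 were lower past the threshold in every one of the 16 alternative settings. The share of all genes meeting this condition was not counted.

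**Figure D1:**
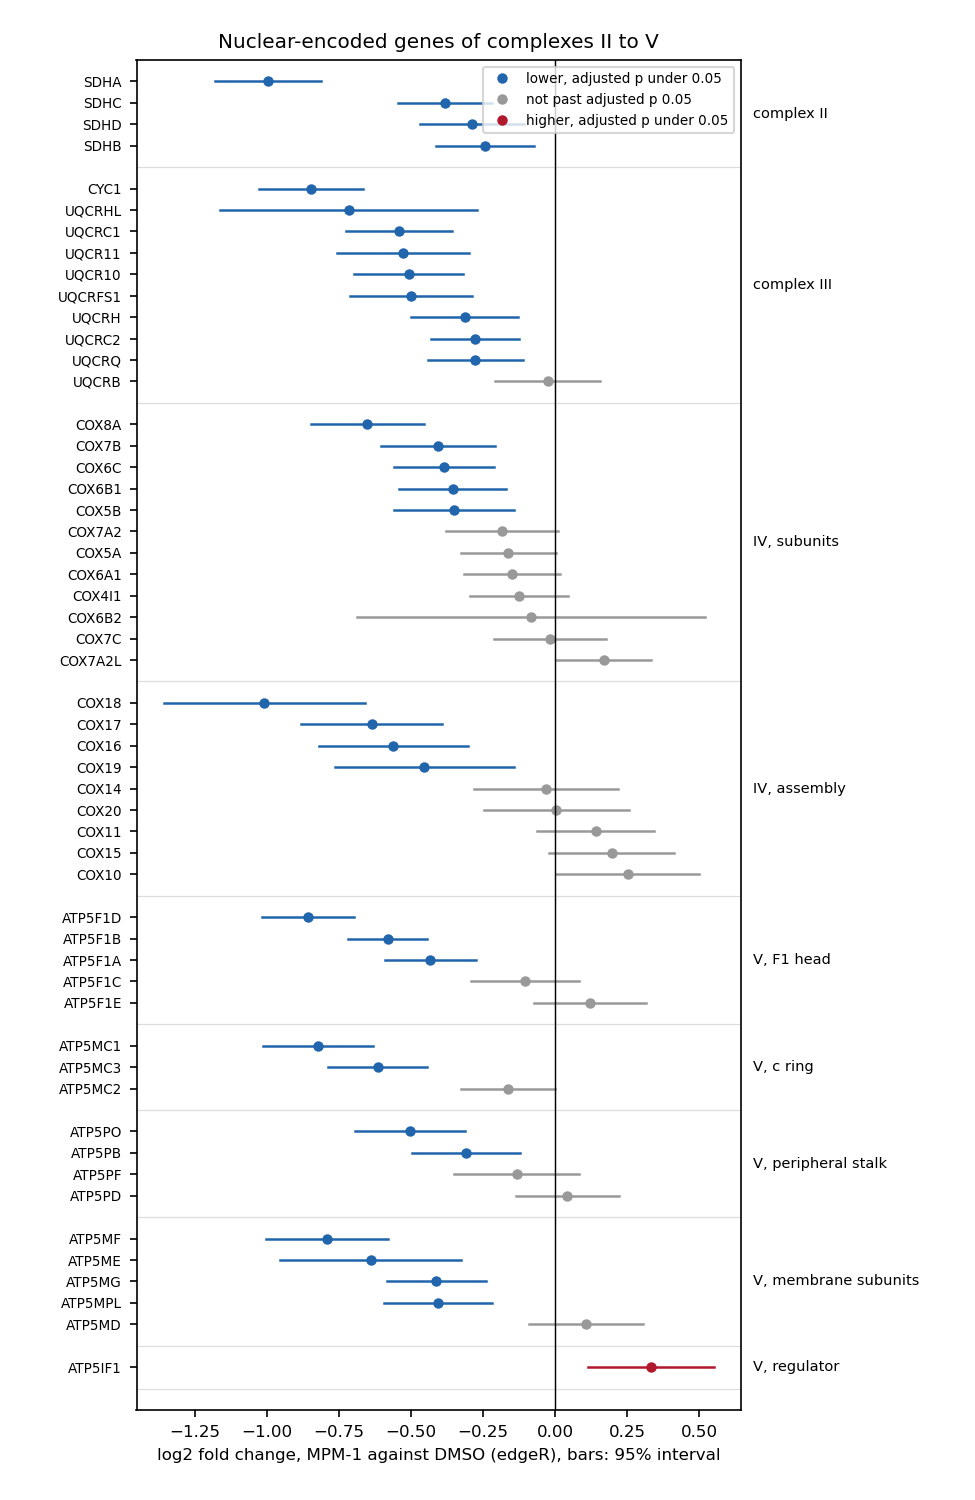
The log2 fold change of each of the 53 genes (points) with its 95% interval (bars), MPM-1 against DMSO, grouped by complex and role; blue marks genes lower and red genes higher at an adjusted p-value under 0.05, and grey the genes that did not pass. All 4 genes of complex II and 9 of 10 of complex III are blue, while 12 of the 21 genes of complex IV are grey.

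The counts of genes that fell differed among the complexes. In complex II 4 of 4 genes fell (median log2 fold change -0.34), in complex III 9 of 10 (-0.50), in complex IV 9 of 21 (-0.16) and in complex V 11 of 18 (-0.41). The difference between complexes itself was not tested. On the scale of levels per length, the summed FPKM of complex II went from 414 ± 5.44 to 285 ± 9.83 (SD, n = 3 libraries each, as throughout), which is 31.1% lower. The sum for complex III was 33.5% lower, for complex IV 23.8% lower and for complex V 30.3% lower. These percentages are not corrected for a general shift in FPKM. On that scale the whole table had a log2 median of -0.17 (limma on log2(FPKM + 0.1)), against -0.03 in edgeR's test. In each complex the 3 MPM-1 sums lay below the 3 DMSO sums. The 6 mtDNA-encoded subunits of complexes III to V (MT-CYB, MT-CO1, MT-CO2, MT-CO3, MT-ATP6 and MT-ATP8) fell much further, their summed FPKM going from 65902 ± 4129 to 14822 ± 1604, or 77.5% lower.

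**Figure D2:**
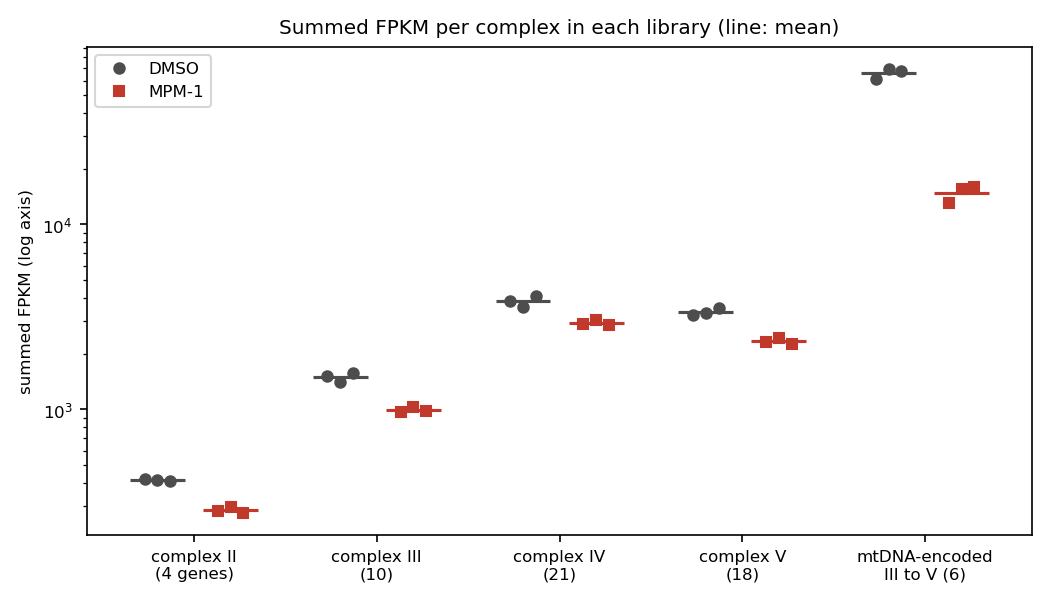
Summed FPKM of the genes of each complex (log axis) in the 3 DMSO and the 3 MPM-1 libraries, with the mean as a line. Sums with MPM-1 lie below those with DMSO for the nuclear genes of all 4 complexes, by 23.8% to 33.5%, and the gap is widest, at 77.5%, for the mtDNA-encoded subunits. The sums are not corrected for the general shift in FPKM, a log2 median of -0.17 over the whole table.

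Promoter sequences are shown for 5 of the genes, chosen by their responses. SDHA and COX18 had the largest falls of the set, UQCR11 fell with most of complex III, COX7C did not pass the test and ATP5IF1 was the gene that rose. Each run is the 250 bases before the first start that RefSeq lists (GRCh38.p14), read 5′ to 3′ on the strand of the gene, and capitals mark matches to the NRF1, ETS or YY1 motifs spelled out further on.
SDHA, chr5:218070-218319, plus strand: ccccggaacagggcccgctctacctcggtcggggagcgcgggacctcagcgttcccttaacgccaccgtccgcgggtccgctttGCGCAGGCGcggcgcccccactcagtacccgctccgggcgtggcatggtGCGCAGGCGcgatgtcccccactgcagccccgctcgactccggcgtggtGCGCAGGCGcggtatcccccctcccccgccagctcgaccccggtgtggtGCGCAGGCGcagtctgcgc
COX18, chr4:73069717-73069966, minus strand: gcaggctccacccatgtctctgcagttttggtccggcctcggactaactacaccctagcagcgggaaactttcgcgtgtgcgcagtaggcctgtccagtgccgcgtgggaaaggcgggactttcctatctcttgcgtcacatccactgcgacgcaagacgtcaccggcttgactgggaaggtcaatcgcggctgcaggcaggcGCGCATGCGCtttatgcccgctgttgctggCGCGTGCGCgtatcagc
UQCR11, chr19:1605463-1605712, minus strand: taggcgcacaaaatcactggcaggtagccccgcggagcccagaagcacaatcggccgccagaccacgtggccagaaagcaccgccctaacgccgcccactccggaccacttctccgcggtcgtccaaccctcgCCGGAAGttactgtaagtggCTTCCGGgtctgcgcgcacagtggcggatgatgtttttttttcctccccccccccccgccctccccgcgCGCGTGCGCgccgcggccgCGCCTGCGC
COX7C, chr5:86617691-86617940, plus strand: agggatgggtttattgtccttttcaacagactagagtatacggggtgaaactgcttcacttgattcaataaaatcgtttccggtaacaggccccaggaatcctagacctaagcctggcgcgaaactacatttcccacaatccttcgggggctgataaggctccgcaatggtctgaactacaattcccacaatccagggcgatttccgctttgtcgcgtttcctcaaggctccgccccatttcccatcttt
ATP5IF1, chr1:28235874-28236123, plus strand: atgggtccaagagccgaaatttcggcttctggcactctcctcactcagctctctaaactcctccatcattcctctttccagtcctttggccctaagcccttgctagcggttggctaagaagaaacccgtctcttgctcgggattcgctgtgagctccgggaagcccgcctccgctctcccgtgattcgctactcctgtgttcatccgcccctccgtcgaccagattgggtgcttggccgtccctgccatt
The window of SDHA holds 4 matches to the NRF1 motif in a row of similar stretches, that of COX18 holds NRF1 matches near its 3′ end, and that of UQCR11 holds both NRF1 and ETS matches. Those of COX7C and ATP5IF1 hold none of these letters. The genes shown do not stand for all the others. ATP5MC1, COX16 and ATP5F1A fell, and their windows hold no match to any of these motifs. ATP5F1C, ATP5MC2, COX6A1 and ATP5PF have an NRF1 match and did not pass the test.

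Complex II showed its largest change in SDHA, the flavoprotein that oxidises succinate (ENSG00000073578, chromosome 5, 218241 to 256700 on GRCh38). Its level was 196, 181 and 174 CPM (counts scaled to library size, with TMM factors) in the DMSO libraries and 93.2, 85.8 and 97.2 CPM in the MPM-1 libraries. The groups were far apart, and SDHA was 49.9% lower (log2 fold change -0.997, SE 0.082, adjusted p = 1.12e-05). SDHA has 3 named pseudogenes in GENCODE, none of them in the table, so reads shared with these copies could not be followed.

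SDHB, the iron-sulfur subunit (chromosome 1, 17018722 to 17054170), went from 183, 181 and 175 CPM to 145, 164 and 146 CPM. All MPM-1 libraries were lower, with a log2 fold change of -0.24 (SE 0.076, adjusted p = 0.021). SDHC, a membrane anchor that helps to hold the heme, went from 145, 152 and 151 CPM to 108, 120 and 115 CPM. Its log2 fold change was -0.38 (SE 0.073, adjusted p = 0.0016). In FPKM, however, the libraries of SDHC overlapped, and limma on log2(FPKM + 0.1) gave an adjusted p of 0.058. SDHD, the other anchor, went from 216, 193 and 200 CPM to 179, 160 and 159 CPM, with a log2 fold change of -0.29 (SE 0.081, adjusted p = 0.013). SDHB and SDHD passed the threshold less firmly than SDHA. SDHB was past it in 13 and SDHD in 14 of the 16 alternative settings, and both missed it without MPM-1 replicate 3.

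SDHA was set against the rest of complex II because its fall was the largest, so the comparison is a description only. The log2 ratio of SDHA to the mean of the other 3 genes was 0.06 ± 0.069 with DMSO and -0.63 ± 0.13 with MPM-1. Per length, SDHB and SDHD had the highest levels of the 4 genes (159 ± 2.89 and 147 ± 6.19 FPKM with DMSO), and SDHC had the lowest (23.5 ± 3.36 FPKM). With DMSO, however, SDHC had 149 CPM and SDHB 179 CPM, and their median transcript lengths in GENCODE are 651 and 674 bases. The lengths behind the FPKM values are not given in the sources used here, so the level of SDHC per length is uncertain.

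In complex III the catalytic subunits and most of the accessory ones fell, but by unequal amounts. CYC1, the cytochrome c1 subunit that hands electrons to cytochrome c, had 374, 318 and 367 CPM with DMSO and 197, 194 and 197 CPM with MPM-1. The MPM-1 libraries were almost identical to each other, and CYC1 was 44.5% lower (log2 fold change -0.85, SE 0.08, adjusted p = 2.57e-05). UQCRFS1, the Rieske iron-sulfur protein, and the core protein UQCRC1 fell by 0.50 and 0.54 on the log2 scale (SE 0.094 and 0.082). The other core protein, UQCRC2, fell by 0.28 (SE 0.068). The small subunits UQCR10, UQCR11 and UQCRQ fell by 0.51, 0.53 and 0.28.

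UQCRB, which binds near the ubiquinone site, was the exception in complex III. It had 132, 120 and 137 CPM with DMSO and 125, 136 and 122 CPM with MPM-1. The groups overlapped, and the log2 fold change of -0.03 had a 95% interval from -0.21 to 0.15. UQCRB overlaps an antisense transcript that is not in the table.

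The hinge protein, which binds cytochrome c1, has a near-identical copy that is also in the table. UQCRH went from 228, 206 and 243 CPM to 191, 176 and 177 CPM (log2 fold change -0.31, SE 0.083, adjusted p = 0.0093). UQCRHL, the copy at another place on chromosome 1, went from 5.85, 5.88 and 7.46 CPM to 3.41, 4.29 and 3.96 CPM (log2 fold change -0.72, SE 0.2, adjusted p = 0.012). Both were lower in every MPM-1 library. Since reads of the pair could be split between the genes in either direction, the values of UQCRHL, which rest on 104 to 297 counts per library, are uncertain.

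**Figure D3:**
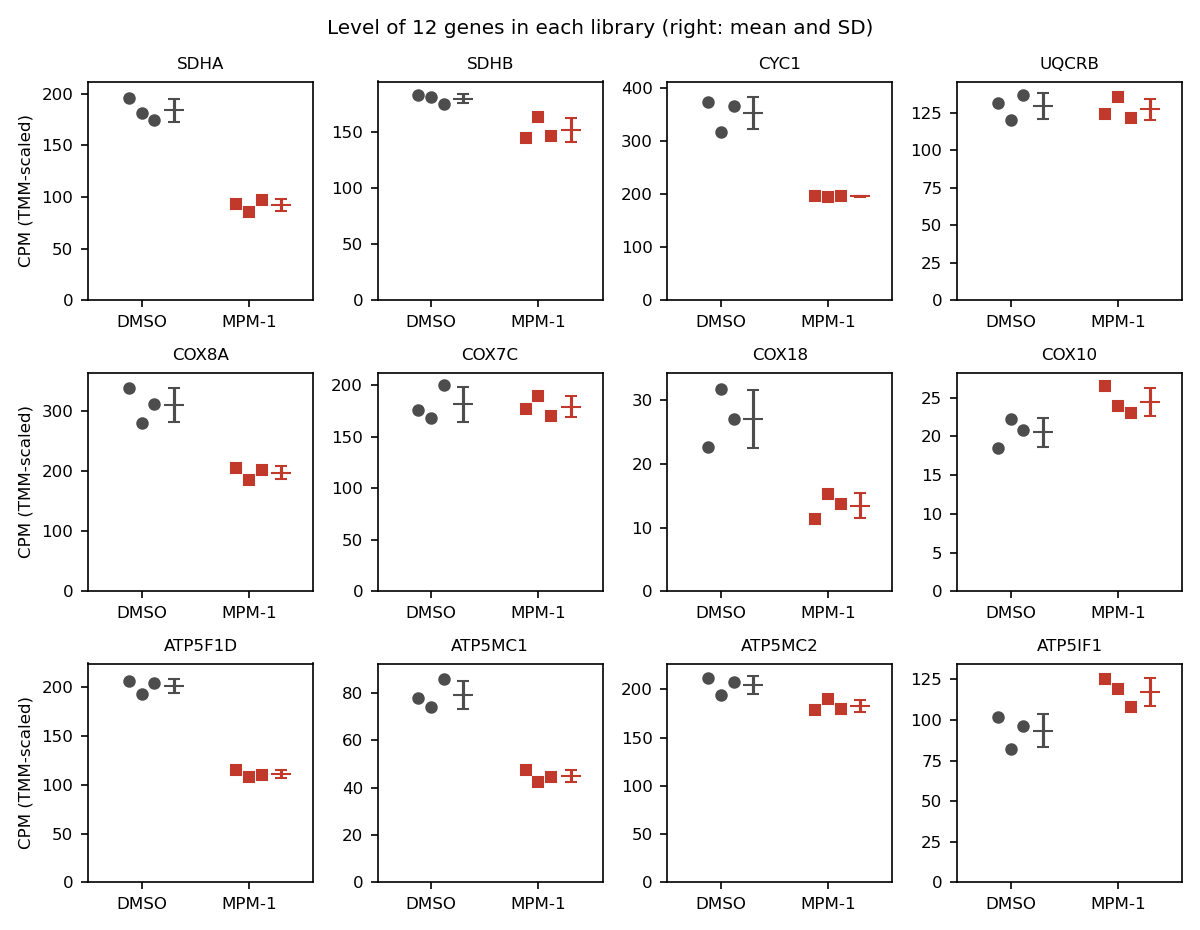
TMM-scaled CPM of 12 genes in each of the 3 DMSO (circles) and 3 MPM-1 libraries (squares), with the mean and SD to the right of each group and every axis starting at 0. SDHA, CYC1, COX18, ATP5F1D and ATP5MC1 show wide gaps, SDHB and COX8A narrower ones, UQCRB and COX7C overlap, and COX10 and ATP5IF1 lie higher with MPM-1.

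Among the 12 subunits of complex IV, 5 fell and 7 did not pass the test. COX8A, a small accessory subunit, changed most. It had 338, 280 and 312 CPM with DMSO and 205, 185 and 202 CPM with MPM-1, a fall of 36.4% (log2 fold change -0.65, SE 0.087, adjusted p = 0.0002). COX7B went from 83.8, 84.3 and 93.6 CPM to 68.4, 69.5 and 59.6 CPM (log2 fold change -0.41, SE 0.088, adjusted p = 0.0033). COX6B1, which faces the intermembrane space, went from 162, 147 and 177 CPM to 124, 129 and 127 CPM (log2 fold change -0.36, SE 0.083, adjusted p = 0.0051). COX6C and COX5B fell by 0.38 and 0.35 on the log2 scale. COX6C has 17 named pseudogenes, the most of any of the 53 genes, and none of them is in the table.

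Several abundant subunits of complex IV did not pass the test. COX6A1 was the highest per length of all 53 genes with DMSO, at 802 ± 51.3 FPKM. It had 451, 420 and 477 CPM with DMSO and 412, 418 and 387 CPM with MPM-1. These groups did not overlap, but the difference of 9.77% did not pass the test (adjusted p = 0.12). COX4I1, the regulatory subunit, had 438, 399 and 458 CPM and then 415, 389 and 384 CPM, with a log2 fold change of -0.13 and a 95% interval from -0.30 to 0.05. COX5A had a log2 fold change of -0.16 (interval -0.33 to 0.00). COX7C, at -0.02 (interval -0.21 to 0.18), lay at 168 to 200 CPM with DMSO and 171 to 190 CPM with MPM-1, and its sign turned with DESeq2 size factors. For COX6A1, COX4I1 and COX7A2 the call depended on scale, since all of them were lower past the threshold with library size alone and with limma on log2 FPKM.

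The COX7A paralogs had fold changes of opposite sign. COX7A2, a subunit of the enzyme, had 150, 134 and 161 CPM with DMSO and 123, 137 and 132 CPM with MPM-1 (log2 fold change -0.18, interval -0.38 to 0.01). COX7A2L, which takes part in joining complexes III and IV into supercomplexes, had 175, 161 and 172 CPM and then 186, 184 and 200 CPM (log2 fold change 0.17, interval 0.00 to 0.33). Neither passed the test, with adjusted p-values of 0.098 and 0.076. The log2 ratio of COX7A2L to COX7A2 counts within a library went from 0.19 ± 0.086 to 0.54 ± 0.099 without overlap (exact permutation test, two-sided, p = 0.1, the smallest possible). With DESeq2's test COX7A2L passed as higher (log2 fold change 0.19, adjusted p = 0.041), and in FPKM its groups overlapped. COX6B2, a testis-type paralog of COX6B1, was near the bottom of the range, with 3.46, 2.13 and 2.61 CPM and then 2.99, 2.41 and 2.32 CPM. Its log2 fold change of -0.08 had an interval from -0.69 to 0.52, and its sign turned in 3 of the alternative settings. The table held no row for COX4I2, COX6A2, COX7A1, COX7B2 or COX8C.

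Of the 9 assembly factors named COX, 4 fell and 5 did not pass. COX18, which inserts part of the mtDNA-encoded subunit COX2 into the inner membrane, fell furthest. It went from 22.6, 31.7 and 27.0 CPM to 11.4, 15.3 and 13.7 CPM and was 50.4% lower (log2 fold change -1.01, SE 0.16, adjusted p = 0.00046). The copper chaperone COX17 fell by 0.64 on the log2 scale, COX16 fell by 0.56 and COX19 fell by 0.45 (SE 0.11, 0.12 and 0.14). The genes of the heme A pathway did not pass the test. COX10, which makes heme O, had 18.5, 22.2 and 20.9 CPM with DMSO and 26.5, 23.9 and 23.0 CPM with MPM-1, so that every MPM-1 library was higher (log2 fold change 0.25, adjusted p = 0.077). COX15, which converts heme O to heme A, likewise lay higher in every MPM-1 library (log2 fold change 0.20, interval -0.02 to 0.41). In FPKM, however, the groups of both genes overlapped, and with library size alone their log2 fold changes were 0.10 and 0.04. COX11, COX14 and COX20, which serve copper insertion and the handling of COX1 and COX2, had log2 fold changes of 0.14, -0.03 and 0.00. These signs are not firm, because those of COX11 and COX20 were negative with library size alone and that of COX14 was positive with the correction for GC content and length.

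Complex V was read by its parts. In the F1 head, where ATP is made, 3 of 5 genes fell. ATP5F1D, the delta subunit of the central stalk, changed most, from 206, 192 and 204 CPM to 115, 107 and 110 CPM. It was 44.8% lower (log2 fold change -0.86, SE 0.071, adjusted p = 1.22e-05). The catalytic beta subunit ATP5F1B had the highest CPM of the 53 genes, with 1328 ± 28.3 falling to 888 ± 25.8 CPM (log2 fold change -0.58, SE 0.061). ATP5F1A, the alpha subunit, fell from 785 ± 48.0 to 581 ± 13.7 CPM (log2 fold change -0.43, SE 0.07). The rest of the central stalk did not pass the test. ATP5F1C, the gamma subunit, had a log2 fold change of -0.10 (interval -0.29 to 0.08). ATP5F1E, the epsilon subunit, had 0.12 (interval -0.07 to 0.31), which became negative with library size alone and on the FPKM scale. ATP5F1C was lower past the threshold in 4 of the 16 alternative settings.

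The c ring of the rotor is made of one protein encoded by 3 genes, which differ in the part cut off on import. ATP5MC1 had 77.7, 74.2 and 85.8 CPM with DMSO and 47.3, 42.3 and 44.6 CPM with MPM-1 (log2 fold change -0.82, SE 0.085, adjusted p = 4.25e-05). ATP5MC3 went from 286, 294 and 324 CPM to 205, 191 and 193 CPM (log2 fold change -0.62, SE 0.077, adjusted p = 0.00013). ATP5MC2 had 212, 194 and 207 CPM and then 178, 189 and 180 CPM. Its MPM-1 libraries were all lower, but the log2 fold change of -0.16 (SE 0.072) did not pass the test, with an adjusted p of 0.079. With library size alone and in the limma fits on log2 FPKM it passed as lower.

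The share of each gene in the c-ring transcripts was compared within libraries. On the FPKM scale ATP5MC1 supplied 28.96% ± 2.12 of the 3 genes' sum with DMSO and 20.3% ± 0.12 with MPM-1. ATP5MC2 supplied 57.4% ± 3.12 and then 65.4% ± 1.53. Neither gene's shares overlapped between treatments, and the exact permutation test gave p = 0.1 for each, the smallest possible. By counts ATP5MC1 supplied 13.5% ± 0.36 and then 10.6% ± 0.51, and ATP5MC2 supplied 35.0% ± 1.68 and then 43.1% ± 1.71, also without overlap. The order of the genes depended on the measure, since ATP5MC2 had the largest share of FPKM and ATP5MC3 the largest share of counts. For ATP5MC3 the result depended on the measure. Its share of FPKM overlapped between treatments (13.7% ± 1.11 and 14.3% ± 1.44, exact p = 0.6), while its share of the 3 genes' counts was 51.5% ± 1.595 and then 46.4% ± 1.22, without overlap (exact p = 0.1). ATP5MC1 has 7 named pseudogenes and ATP5MC2 has 3, none in the table.

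**Figure D4:**
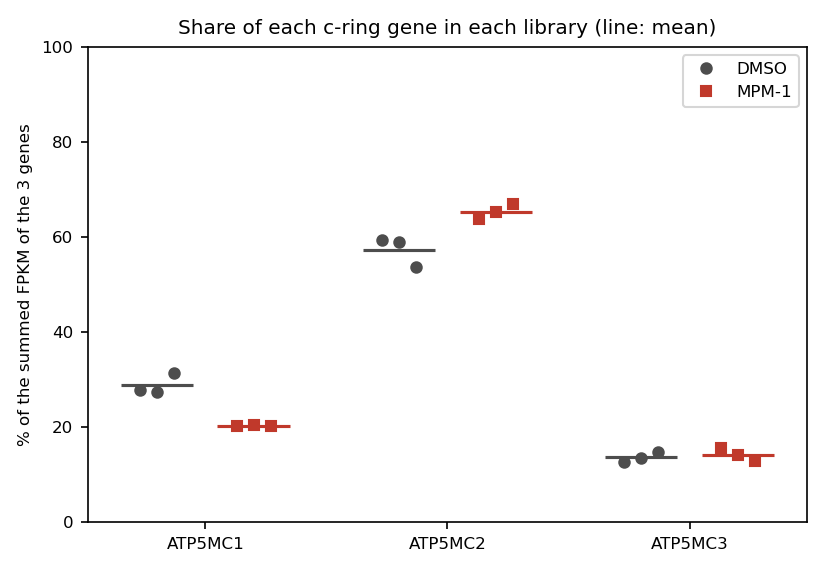
Share of each c-ring gene in the summed FPKM of the 3 genes, in percent, for each DMSO (circles) and MPM-1 library (squares), with the mean as a line. ATP5MC1 averages 28.96% with DMSO and 20.3% with MPM-1, ATP5MC2 averages 57.4% and 65.4%, and the groups of ATP5MC3 overlap. By counts the order of the genes differs, and ATP5MC3 has the largest share.

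In the peripheral stalk, which keeps the head from turning, 2 of 4 genes fell. ATP5PO, the subunit that carries oligomycin sensitivity, went from 208, 196 and 233 CPM to 147, 157 and 145 CPM (log2 fold change -0.50, SE 0.085, adjusted p = 0.0008). ATP5PB, subunit b, fell by 0.31 on the log2 scale (SE 0.084). ATP5PF had a log2 fold change of -0.13 (interval -0.35 to 0.08). ATP5PD had 0.04 (interval -0.14 to 0.22), which was negative with library size alone and on the FPKM scale. ATP5PF was lower past the threshold in 4 of the 16 alternative settings. It shares exonic sequence on the opposite strand with GABPA, which is itself in the table and fell by 0.44.

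Among the 5 small membrane subunits, which shape the base of the enzyme and its dimers, 4 fell. ATP5MF, subunit f, changed most, from 58.2, 68.9 and 72.6 CPM to 39.3, 38.3 and 37.6 CPM (log2 fold change -0.79, SE 0.095, adjusted p = 0.0001). It shares exons with PTCD1 on the same strand, so its reads may be counted for either gene. ATP5ME, ATP5MG and ATP5MPL (now named ATP5MJ) fell by 0.64, 0.41 and 0.41 on the log2 scale. ATP5MD (now ATP5MK) had a log2 fold change of 0.11 (interval -0.09 to 0.30), and its sign was negative with library size alone and on the FPKM scale.

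ATP5IF1, the inhibitory factor that binds the F1 head when ATP synthase runs in reverse, was the single gene that rose. It had 102, 82.1 and 96.2 CPM with DMSO and 125, 119 and 108 CPM with MPM-1, a log2 fold change of 0.33 (SE 0.097, adjusted p = 0.016). This call rested on the scale of the values. With library size alone the log2 fold change was 0.18 (adjusted p = 0.11), without DMSO replicate 2 it was 0.25 (adjusted p = 0.064), and in FPKM the groups overlapped (130 ± 11.1 and 137 ± 6.64, limma adjusted p = 0.41).

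In the FPKM values, the 3 MPM-1 libraries lay below all DMSO libraries in 39 of the 53 genes, above them in 0 and among them in 14. Shares over the whole table were not counted on this scale. The table itself was shifted down in FPKM, with a log2 median of -0.17 (limma on log2(FPKM + 0.1)) against -0.03 in the main test. The sign of the fold change differed between scalings in 8 genes, none of which had passed the test. The size of the change had little relation to level or length across the 53 genes (Spearman's rho of log2 fold change with mean FPKM in DMSO -0.05, and with median transcript length 0.10). With the GC content of the transcripts rho was -0.39. These are descriptions across genes of the same 6 libraries, and genes are not independent replicates.

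Motifs were searched in RefSeq windows of 300 bases, from 250 before to 50 after the start, on both strands. A window was found for 43 of the 53 genes. The letters were GCGCANGCG for NRF1, CCGGAAG for ETS proteins and AAGATGGC for YY1. The NRF1 motif was present in 34.9% of these windows, against 15.3% of the windows of 9801 genes of the table and 8.05% of all 27305 windows. The ETS motif was in 41.9%, against 19.9% and 10.7%, and the YY1 motif in 13.95%, against 5.57% and 3.03%. Of the 15 genes with an NRF1 match, 11 fell and the median log2 fold change was -0.50. Of the 28 without one, 14 fell and the median was -0.21. When 1 more base, a C at the 3′ end, was required of the NRF1 motif, 12 genes matched, of which 11 fell (median -0.52), against 14 of the 31 others (median -0.16). The longer form was the first searched, and the gap in medians is smaller with the shorter one. Over all genes of the table with a window, the medians were -0.05 with and -0.02 without the shorter NRF1 motif. Of those genes, 30.6% with and 28.9% without the shorter motif fell. For the longer form the shares were 30.7% and 28.9%. Corrected for GC content and length, the medians within the 53 genes were -0.43 with and -0.20 without the shorter motif. For the ETS motif the medians were -0.28 with and -0.31 without, and for the YY1 motif -0.28 and -0.29. With the same correction they were -0.27 and -0.38 for ETS, and -0.34 and -0.29 for YY1. These groupings were made after the fold changes were known and were not tested, and a match in letters is not a measured binding site.

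**Figure D5:**
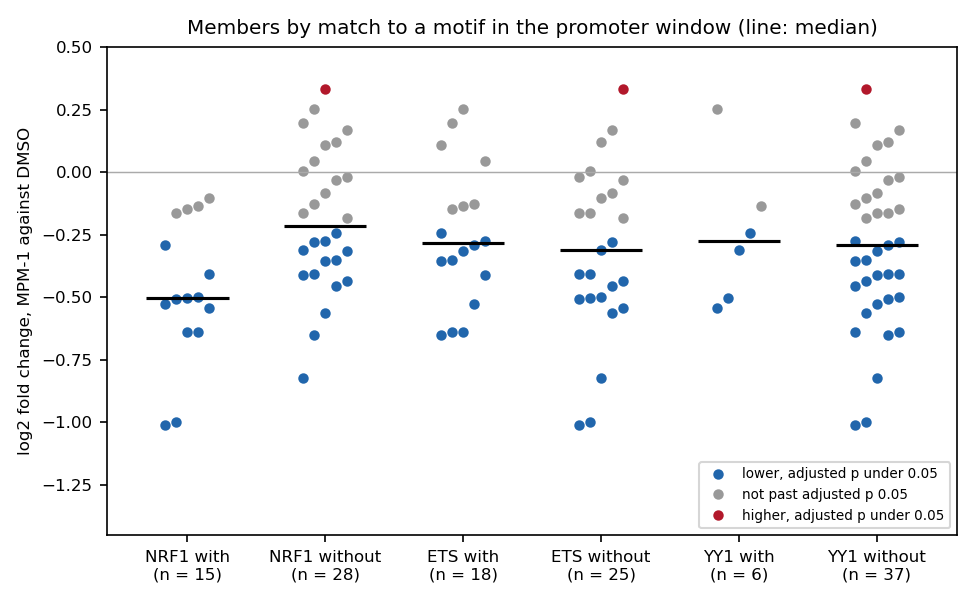
Log2 fold change of the 43 genes with a RefSeq window, split by a match to the NRF1, ETS or YY1 motif; each point is a gene, coloured by its call, and lines mark medians. The 15 genes with an NRF1 match have a median of -0.50 and none lies above 0, and the uncorrected medians are -0.28 with and -0.31 without an ETS match, and -0.28 with and -0.29 without a YY1 match.

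The table also held 12 regulators of respiratory genes, some acting on nuclear promoters and some, such as TFAM and TFB2M, on mtDNA. Of these 6 fell, where 28.8% of all genes did, 3 rose, where 27.7% of all genes did, and 3 did not pass. NRF1 had 14.7 ± 1.91 CPM with DMSO and 16.5 ± 1.25 CPM with MPM-1 and did not pass (log2 fold change 0.17, adjusted p = 0.32). The largest changes were in GABPB2 (log2 fold change -1.16), which was low at 4.91 ± 0.948 CPM with DMSO, in the coactivator PPARGC1B (-0.95) and in TFAM, which packs and transcribes mtDNA (-0.88). GABPA, the DNA-binding part of GABP, fell by 0.44 on the log2 scale, while its partner GABPB1 and YY1 rose by 0.29 and 0.22.

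Of 34 assembly factors and associated proteins outside the COX symbols, 14 fell (41.2%, against 28.8% of all genes) and 4 rose (11.8%, against 27.7%). BCS1L, which inserts the Rieske protein into complex III, had the largest change, from 27.1 ± 1.63 to 13.8 ± 1.89 CPM (log2 fold change -0.97, SE 0.13, adjusted p = 0.00017). TACO1, which activates translation of COX1, fell by 0.94 and the copper chaperone SCO2 by 0.69 on the log2 scale. For complex II, the factors SDHAF2, SDHAF3 and SDHAF4 fell and SDHAF1 did not pass, which gave 3 of 4. SURF1 and LRPPRC, which serve complex IV and the stability of mtDNA-encoded mRNA, were among those that rose, both by 0.31. Cytochrome c itself (CYCS), the carrier between complexes III and IV, went from 226 ± 1.24 to 205 ± 2.20 CPM and did not pass (log2 fold change -0.14, adjusted p = 0.098).

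Beside related genes, the nuclear genes of complexes II to V lay on the same side. The 47 genes whose symbols begin with NDUF are mostly subunits and assembly factors of complex I, and take in NDUFA4, counted above with complex IV. They had a median log2 fold change of -0.24, with 21 lower (44.7%, against 28.8% of all genes) and 3 higher (6.38%, against 27.7%). The 78 genes of mitochondrial ribosomal proteins had a median of -0.23, with 38 lower (48.7%) and 6 higher (7.69%). The 6 mtDNA-encoded subunits of complexes III to V had a median of -1.91, and 6 of 6 were lower under both call rules. Their smallest change, in MT-CO3 (log2 fold change -1.62), exceeded that of each of the 53 nuclear genes. Whether the sets differ was not tested.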

How the data were processed

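RNA sequencing was applied to SW480 cells treated for 24 h, with 3 libraries for DMSO and 3 for MPM-1, grouped from the sample labels. The authors deposited 1 table with the whole-number count of each gene per library, without normalization, and the FPKM of each gene, which the authors scaled for length and depth. A company made and sequenced the libraries and analysed them first. The submitters' processing notes name HISAT2 and DESeq2 and the build mm10, although the gene identifiers are human. The counter, the annotation, the gene filter and the use of strand are not given in the sources used here, so genes that overlap on opposite strands could not be told apart. Of the 53 genes, 17 share exonic sequence with another gene on the same strand and 18 on the other. Every gene in the table had at least 115 counts in total, and no further filter was applied, so all 53 genes were tested. The columns of the authors' own comparison, a log2 fold change and an FDR, were not used.

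Counts were tested with edgeR 4.0.16 in R 4.3.3 (glmQLFit, glmQLFTest, TMM scaling, factors 1.03 to 1.07 in DMSO libraries and 0.93 to 0.97 in MPM-1 libraries) over all 12982 genes, with no covariate. Calls used a Benjamini-Hochberg adjusted p-value under 0.05, or, as a stricter rule, under 0.01 with a change of 1 or more on the log2 scale. Intervals are at 95%. FPKM values were summed per complex and, as an alternative, tested with limma 3.58.1 on log2(FPKM + 0.1), a scale that understates changes of low genes. Ratios within a library were compared by exact permutation (scipy 1.17.1). Other alternatives were DESeq2 1.42.0, its size factors, library size alone, a mean of at least 50 counts, a pseudocount of 1, a replicate block and each library left out. Scaling without mtDNA-encoded genes and an offset for GC content and length (loess, span 0.3, 12127 annotated genes) were added after seeing the data. The scripts were tested on simulated data. Coordinates are from GENCODE release 29 (GRCh38) and promoters from RefSeq (GRCh38.p14). For genes with several starts the first listed was used.

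The genes given library by library were the 4 SDH genes, the largest rise and fall called in each role, genes past the stricter rule and sets of paralogs, and 2 more, UQCRB and COX10, were added after their values were seen. The members and lists were chosen with earlier results of these data known. The precision is limited by 3 libraries per treatment at 31733667 to 40269820 counts. Libraries of a treatment differed beyond sampling noise (chi-square per gene 15.4 to 33.2), and each was counted once.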

Additional observations from a re-analysis of the deposited data

How the results depend on the processing

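The count of genes called lower was 33 with DESeq2 size factors, DESeq2's test, the filter on low counts and both added corrections, 40 with library size alone, 39 with each limma fit on log2 FPKM, 28 to 33 with 1 library left out (28 without MPM-1 replicate 3) and 1 under the stricter rule. The count called higher was 0 with library size alone, the 3 limma fits and the stricter rule, 2 with DESeq2's test, 3 with the GC and length offset, and 0 to 1 with 1 library left out. Shares of all genes called were not counted for the alternative fits. The median of all genes was -0.18 with library size alone and -0.17, -0.13 and -0.15 in the limma fits (pseudocount 0.1, 1, and 0.1 with the filter). The median of the 53 genes was -0.50 with library size alone, -0.47, -0.46 and -0.47 in the limma fits (pseudocount 0.1, 1, and 0.1 with the filter), and -0.38 to -0.29 with 1 library left out. In the same order, library size alone and the limma fits gave -0.49, -0.42, -0.42 and -0.42 for complex II, -0.31, -0.30, -0.30 and -0.30 for complex IV and -0.56, -0.52, -0.51 and -0.52 for complex V (-0.44 to -0.35 with 1 library left out). Complex III had -0.65 with library size alone and -0.40 with the GC and length offset. COX6B2 (-0.24 to 0.12 with 1 library left out) turned positive without DMSO replicate 1 (0.12), without MPM-1 replicate 3 (0.0009) and with that offset (0.028). Of 368 values for 23 genes over 16 settings, 332 kept direction and side of the threshold, 15 lost and 18 gained a call, and 3 turned. The cause was not tested.

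Replicate numbers did not mark pairs (correlations of deviations 0.02, 0.11 and -0.07 for equal numbers). With the number as a replicate block, 33 genes were lower and 1 higher, with a median of -0.35. Depth limits COX6B2, at 74 to 114 counts per library, and UQCRHL most.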
